A study of Rattus norvegicus with 18 samples.

Results

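Voluntary wheel running during repeated restraint was compared with restraint alone in the rat hypothalamus, the brain region that links the nervous system to hormone release, feeding and blood pressure control. The comparison holds 12 of the 18 arrays of the series, 1 array per rat: 6 rats with restraint and a running wheel (called wheel rats here) and 6 rats with restraint and no wheel (stress 1 to 6), all chosen by their labelled group. All were male Wistar rats, 9 weeks old per the labels. In both groups restraint lasted 1 to 1.5 h per session, with 5 sessions weekly during 3 weeks, and the wheel rats could run freely for 4 weeks, starting 1 week ahead of the restraint. The other 6 rats, with neither restraint nor wheel, entered the fit only through the shared spread, and their levels are given beside the main genes. No group had a wheel without restraint, and the distance each rat ran is not given in the labels. RNA was labelled with 1 dye, and the level of a probe is the log2 of its processed intensity minus that of the array's 75th percentile, so a level of 0 is that percentile and a difference of 1 is a doubling. Levels are not comparable between genes.

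Restraint is a psychological stressor that drives neurons of the paraventricular nucleus to release corticotropin-releasing hormone and vasopressin, which start the hormonal chain ending in adrenal glucocorticoids. The same region holds the peptide neurons of feeding, the thyroid axis and oxytocin release, and dopamine neurons that control prolactin. Voluntary running in rodents engages dopamine pathways and trophic factors and is a common model of exercise with little coercion.

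The arrays lay on 5 slides that were scanned on 2 days, per the file headers. Control rats 1 and 2 lay on slide 1 (scan day 2) and control rats 3 to 6 on slide 2 (scan day 1). No control shared a slide with the other groups, so control levels also carry slide differences. Stress 1 to 4 filled slide 3, stress 5 and 6 shared slide 4 with 2 wheel rats, and the other 4 wheel rats lay on slide 5. The wheel rats therefore shared their slide set (slides 4 and 5) with stress 5 and 6 only, and those 2 rats are given apart. An array measured 63.6% to 77.8% of its probes well above background, and the 75th percentile ran from 1963 to 2422 intensity units. No spot was saturated, and the number of arrays limits the precision.

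Among 6 rats against 6, 1191 of 30438 tested probes differed (limma, Benjamini-Hochberg adjusted p under 0.05), which is 3.91% of the probes tested. Of these, 381 were higher (1.25%) and 810 lower (2.66%) in the wheel rats. Counted as genes with the brightest tested probe each, 456 of 12846 differed (3.55%), 220 of them higher (1.71%) and 236 lower (1.84%). Counts in the gene lists below are to be read beside these shares of all genes. Differences were small among the rises, between 0.12 and 0.76 with a median of 0.21, and reached -1.73 among the falls, with a median of -0.33. The median over all genes was 0.03. Of the probes that differed, 640 carried no gene symbol in the table used and are not named.

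The stress group itself was split along the slides. Stress 1 to 4 were scanned on day 2 and stress 5 and 6 on day 1, so within this group slide and scan day cannot be told apart. Stress 5 and 6 differed from stress 1 to 4, which had the same treatment, in 4882 probes (16% of those tested) and in 1886 genes (14.7%), 974 higher and 912 lower. Against stress 5 and 6 alone, the wheel rats differed in 2 of 30438 probes (0.00657%) and in 0 genes. Of these 2 probes, 1 had no stress 6 value and rests on stress 5 alone. Before adjustment 1916 probes and 853 genes had a p under 0.05, and no gene had an adjusted p below 0.0912. Stress 5 and 6 had no wheel, so a gene in which they stand with the wheel rats and away from stress 1 to 4 differs between rats of 1 treatment. That difference runs along the slide set and, within the stress group, the scan day. In 1368 of 12846 genes (10.6%) stress 5 and stress 6 both lay outside the range of the wheel rats. Both lay below that range in 675 of the 12846 genes and above it in 693. Among the 220 genes that rose, 90 had both rats below that range, and among the 236 that fell, 74 had both above it. Wheel rats and stress 5 and 6 all entered the choice of these genes, so the counts are a description. Over all 12846 tested genes, the 6 wheel rats lay above all 6 stress rats in 126 genes and below all of them in 121.

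The count of 1191 moved with single arrays. Without stress 1, 2, 3 or 4 it was 3, 1, 1 and 2 probes, and without wheel rats 1 to 6 it was 1, 8, 1, 1, 4 and 9. Leaving out stress 5 gave 4597 probes and stress 6 gave 4134, and leaving out both gave 7637. Control rats 1 to 6, left out in turn, gave 670, 660, 407, 249, 309 and 6. With the 12 arrays of the 2 groups alone no probe passed, while 6467 had an unadjusted p under 0.05. Within scan day 1, where 2 wheel rats met stress 5 and 6, the count was 0 (3633 at an unadjusted p under 0.05), and within day 2, where the other 4 wheel rats met stress 1 to 4, it was 7556. Scan day as a block gave 3103 probes, slide as a random block 0 (3427 at an unadjusted p under 0.05), slide set as a covariate 2, and the replicate block, which pairs rats by number, 1. With no scaling of the arrays, 36 probes were higher and 1350 lower. Of the 65 named genes that passed, at most 1 still did without any single one of stress 1 to 4 or of the wheel rats, and none without control 6. Calls below are those of the 18-array fit.

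**Figure D1:**
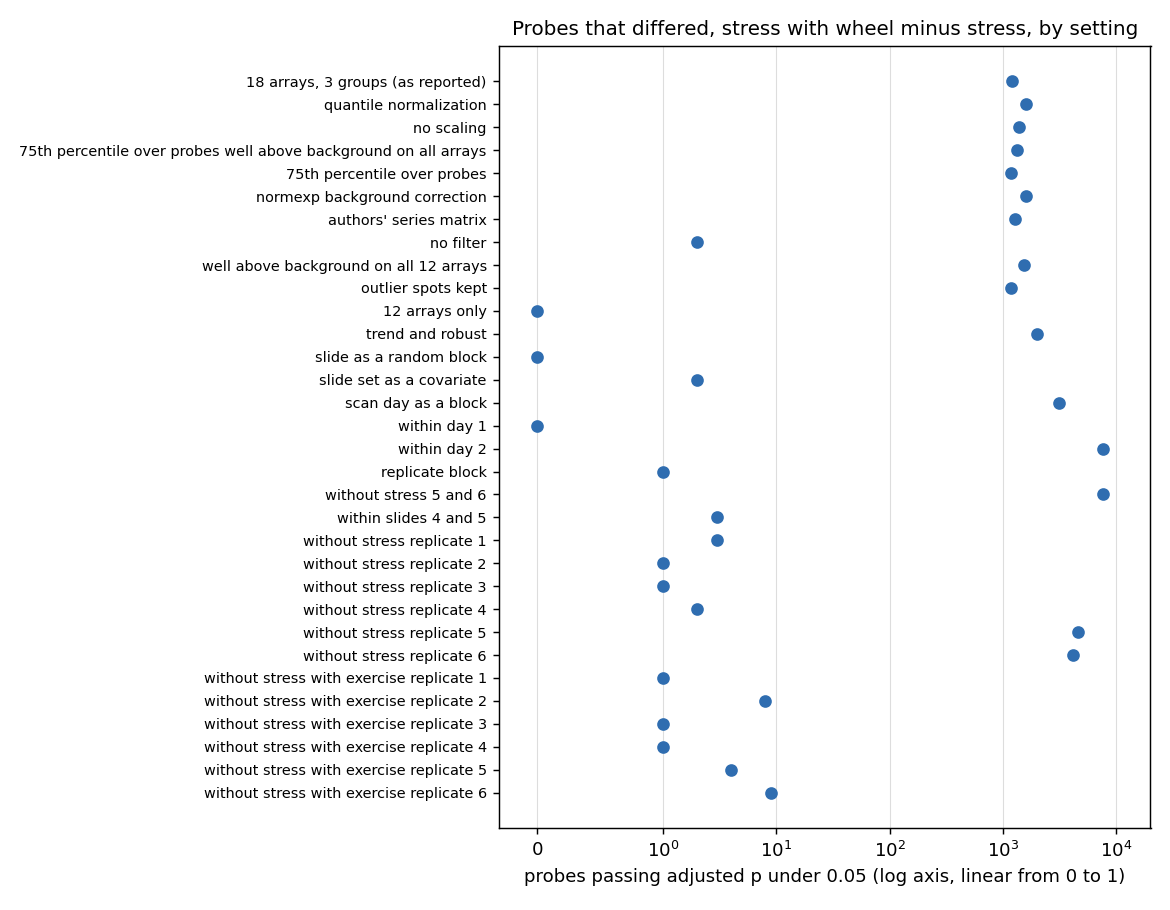
Number of probes passing an adjusted p under 0.05 for stress with wheel minus stress (horizontal, logarithmic above 1) under each setting (vertical). Fits without a control rat are not drawn. Each point is 1 fit. The count is 1191 as reported, 7637 without stress 5 and 6, and 2 with slide set as a covariate.

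Wheel rats lay beyond both stress 5 and stress 6 in a first class of genes, and these are described by role. Srms, a non-receptor tyrosine kinase of the Src-related group, read -4.10, -4.39, -4.69 and -4.53 in stress 1 to 4, -4.26 in stress 5 and -4.60 in stress 6, against a lowest, median and highest level of -4.01, -3.87 and -3.71 in the wheel rats. The lowest wheel rat was above all 6 stress rats, and the control mean was -4.18 ± 0.19 (SD, n = 6). The difference was 0.56 ± 0.10 (SE, n = 6 and 6, adjusted p = 0.0335), and against stress 5 and 6 it was 0.56 ± 0.14 (SE, n = 6 and 2, adjusted p = 0.546). Prkd2, a serine/threonine kinase of the protein kinase D family, read -6.30, -6.54, -6.63 and -7.16 in stress 1 to 4, -6.57 in stress 5 and -6.83 in stress 6, against a lowest, median and highest level of -6.32, -5.84 and -5.60 in the wheel rats. One stress rat of slide 3 overlapped the wheel rats, and stress 5 and 6 did not. Its difference was 0.76 ± 0.18 (SE, n = 6 and 6, adjusted p = 0.0398), the highest rise among the genes that passed, and 0.79 ± 0.27 (SE, n = 6 and 2, adjusted p = 0.673) against stress 5 and 6. Controls averaged -6.06 ± 0.42 (SD, n = 6).

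Rhbdf1, an inactive rhomboid protein that regulates release of growth factor ligands, read -3.18, -3.09, -3.21 and -3.07 in stress 1 to 4, -2.91 in stress 5 and -3.16 in stress 6, against a lowest, median and highest level of -2.86, -2.77 and -2.57 in the wheel rats. No stress rat reached the wheel rats, with stress 5 the nearest. The difference was 0.36 ± 0.06 (SE, n = 6 and 6, adjusted p = 0.0335), and 0.29 ± 0.08 (SE, n = 6 and 2, adjusted p = 0.559) against stress 5 and 6, with controls at -3.11 ± 0.05 (SD, n = 6). Pde10a, the cyclic nucleotide phosphodiesterase that is abundant in striatal medium spiny neurons, rose by 0.39 ± 0.09 (SE, adjusted p = 0.0375) and differed by 0.31 from stress 5 and 6. The 11 tested striatal markers held Pde10a as their 1 call; 9 of them were higher, and their mean level ran from -0.91 to -0.53 in stress 1 to 4, was -0.68 in stress 5 and -0.68 in stress 6, and ran from -0.76 to -0.26 in the wheel rats. Their part in this rise was not tested.

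Transcription and RNA factors were also among the rises. Maz, a zinc finger transcription factor, read -5.17, -5.18, -5.12 and -5.26 in stress 1 to 4, -5.13 in stress 5 and -5.10 in stress 6, against a lowest, median and highest level of -5.05, -4.72 and -4.54 in the wheel rats. All wheel rats were above all stress rats, and the difference was 0.42 ± 0.08 (SE, n = 6 and 6, adjusted p = 0.0364), with 0.38 against stress 5 and 6. Ddx41, a DEAD-box helicase that also senses nucleic acids, rose by 0.45 ± 0.08 (SE, adjusted p = 0.0359), and Zbtb8a, a zinc finger protein, by 0.33 ± 0.08 (SE, adjusted p = 0.0409). Against stress 5 and 6 these genes differed by 0.23 and 0.29. Ddx41 was also higher in stress 5 and 6 than in stress 1 to 4, by 0.32 ± 0.10 (SE, n = 2 and 4, adjusted p = 0.0381).

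Several secreted, vascular and metabolic genes rose. Fcna, a ficolin that recognises sugars in innate immunity, read -6.27, -6.45, -6.33 and -6.26 in stress 1 to 4, -6.65 in stress 5 and -6.75 in stress 6, against a lowest, median and highest level of -6.28, -5.89 and -5.68 in the wheel rats. Stress 5 and 6 were the lowest of the stress rats, and 2 slide 3 rats reached the wheel range. The difference was 0.51 ± 0.12 (SE, n = 6 and 6, adjusted p = 0.0388) and 0.75 ± 0.14 (SE, n = 6 and 2, adjusted p = 0.188) against stress 5 and 6. Sct, which encodes the peptide hormone secretin, rose by 0.39 ± 0.08 (SE, adjusted p = 0.0364), with 0.41 against stress 5 and 6 and controls at -6.54 ± 0.17 (SD, n = 6). Abcc9, the sulfonylurea receptor subunit of vascular potassium channels and a marker of pericytes, rose by 0.33 ± 0.08 (SE, adjusted p = 0.0398), and Nos3, endothelial nitric oxide synthase, by 0.17 ± 0.05 (SE, adjusted p = 0.0496). Against stress 5 and 6 they differed by 0.28 and 0.13. Of the 12 mural and fibroblast markers tested, Abcc9 was the 1 that passed, 10 were higher, and the mean level of the list ran from -2.94 to -2.50 in stress 1 to 4, was -3.22 in stress 5 and -3.44 in stress 6, and ran from -3.11 to -2.52 in the wheel rats. The median difference of that list was 0.18 over 6 and 6 and 0.45 against stress 5 and 6. More cells of a type and more RNA per cell cannot be told apart in such tissue. Abhd5, the activator of adipose triglyceride lipase, rose by 0.37 ± 0.09 (SE, adjusted p = 0.042), and Myh7b, a myosin heavy chain, by 0.49 ± 0.08 (SE, adjusted p = 0.0335). Galnt9, a glycosyltransferase, rose by 0.45 ± 0.11 (SE, adjusted p = 0.041) over 5 wheel rats, since the spot of wheel rat 1 was an outlier. The differences of Abhd5, Myh7b and Galnt9 from stress 5 and 6 were 0.34, 0.33 and 0.34.

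Protein folding genes of the endoplasmic reticulum gave 2 rises among 25 tested chaperone and stress genes and no fall, with a median of 0.03 that equals the median over all genes. Over all genes 1.71% rose. Sdf2l1, a component of the reticulum chaperone complex, read -0.28, -0.33, -0.36 and -0.34 in stress 1 to 4, -0.22 in stress 5 and -0.23 in stress 6, against a lowest, median and highest level of -0.20, -0.07 and 0.03 in the wheel rats. All wheel rats were above all stress rats. The difference was 0.22 ± 0.05 (SE, n = 6 and 6, adjusted p = 0.0375), and that from stress 5 and 6 was 0.15. Pdia4, a disulfide isomerase, rose by 0.26 ± 0.07 (SE, adjusted p = 0.0479) and differed by 0.22 from stress 5 and 6.

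Falls beyond both rats included lipid and retinoid enzymes. Lrat, which esterifies retinol for storage, read -6.07, -5.66, -6.01 and -6.03 in stress 1 to 4, -5.64 in stress 5 and -6.04 in stress 6, against a lowest, median and highest level of -7.64, -6.73 and -6.21 in the wheel rats. All wheel rats were below all stress rats. The difference was -0.88 ± 0.20 (SE, n = 6 and 6, adjusted p = 0.0395) and -0.95 ± 0.30 (SE, n = 6 and 2, adjusted p = 0.629) against stress 5 and 6, and controls stood at -5.81 ± 0.21 (SD, n = 6). Ces1c, a carboxylesterase, read -4.76, -4.34, -4.58 and -4.57 in stress 1 to 4, -4.61 in stress 5 and -4.80 in stress 6, against a lowest, median and highest level of -5.20, -5.01 and -4.97 in the wheel rats, again with no overlap. Its difference was -0.46 ± 0.08 (SE, n = 6 and 6, adjusted p = 0.0335) and -0.36 ± 0.11 (SE, n = 6 and 2, adjusted p = 0.629) against stress 5 and 6. Its relative Ces1d fell by 0.43 on the log2 scale (adjusted p = 0.0407). Near-identical carboxylesterase genes may share a probe. Acer2, a Golgi ceramidase, differed by -0.43 ± 0.09 (SE, adjusted p = 0.0379), and Idi1, isopentenyl diphosphate isomerase of sterol synthesis, by -0.17 ± 0.04 (SE, adjusted p = 0.0379). Against stress 5 and 6 they differed by -0.28 and -0.14, and Ces1d by -0.32.

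Nhlh2, a basic helix-loop-helix factor of hypothalamic neurons that is tied to body weight and physical activity in mice, read -6.10, -6.08, -5.61 and -5.96 in stress 1 to 4, -5.87 in stress 5 and -5.81 in stress 6, against a lowest, median and highest level of -6.57, -6.24 and -6.17 in the wheel rats. No wheel rat reached the stress rats, and controls averaged -5.91 ± 0.17 (SD, n = 6). The difference was -0.41 ± 0.10 (SE, n = 6 and 6, adjusted p = 0.0398) and -0.47 ± 0.14 (SE, n = 6 and 2, adjusted p = 0.596) against stress 5 and 6. Cpa4, a carboxypeptidase, differed by -0.55 ± 0.14 (SE, adjusted p = 0.042) and by -0.72 from stress 5 and 6. Genes of cilia and sperm, Tekt3, Dydc2 and Spaca3, differed by -0.47, -0.33 and -0.56, and by -0.40, -0.29 and -0.54 from stress 5 and 6. LOC103691517 was not well above background on any wheel array and entered the test through the stress rats only. It was at least 2.10-fold lower in the wheel rats, a bound against the dimmest measurable signal. Its limma adjusted p of 0.0364 came from levels as read, some of them below that signal, and does not test the bound.

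**Figure D2:**
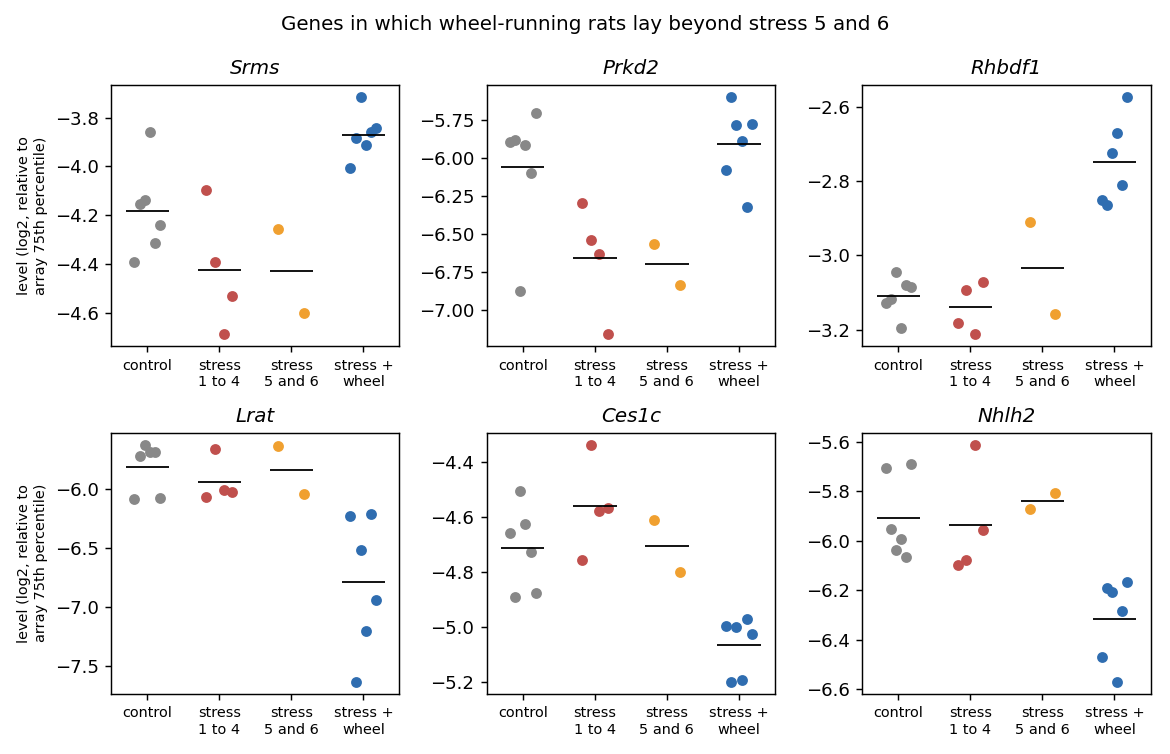
Level of 6 genes (log2, relative to the array's 75th percentile) in each rat, by group. Points are rats and bars are group means. In Srms, Rhbdf1, Lrat, Ces1c and Nhlh2 the 6 wheel rats do not overlap the 6 stress rats.

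In a second class stress 5 and 6 already stood at or near the level of the wheel rats. Oxidative phosphorylation subunits gave 4 falls and 1 rise among 78 tested genes, with a median of 0.02. Over all genes 1.84% fell and 1.71% rose. Cox7c, a cytochrome c oxidase subunit, read 1.08, 1.00, 1.03 and 1.08 in stress 1 to 4, 0.02 in stress 5 and 0.15 in stress 6, against a lowest, median and highest level of -0.03, 0.02 and 0.15 in the wheel rats. Both stress rats of slide 4 lay with the wheel rats and below the other stress rats, while controls averaged 1.14 ± 0.06 (SD, n = 6). The difference over 6 and 6 was -0.68 ± 0.16 (SE, n = 6 and 6, adjusted p = 0.0398), that from stress 5 and 6 was -0.04 ± 0.06 (SE, n = 6 and 2, adjusted p = 0.975), and stress 5 and 6 minus stress 1 to 4 gave -0.96 ± 0.06 (SE, n = 2 and 4, adjusted p = 1.23e-08). Cox4i2, the isoform of subunit 4 found in lung and vascular cells, showed -0.77, -0.03 and -1.11 in the same order, and the Cox6c-ps1 probe -0.41, -0.07 and -0.52. The 1 riser, Atp5f1d of the ATP synthase, was 0.19 ± 0.04 (SE, adjusted p = 0.0379) higher, and 0.09 higher than stress 5 and 6. All wheel rats were above all stress rats in Atp5f1d, so it belongs to the first class.

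Ribosomal protein genes and like-genes gave 6 falls and no rise among 99 tested, with a median of -0.01, beside 1.84% falls over all genes. The list also holds S6 kinase genes, whose symbols share its stem. All 6 falls (Rpl17l5, Rpl22l1, Rpl27l2, Rpl36al1, Rpl39l5 and Rps19l3) were like-genes, whose probes may share sequence with other copies. Rpl17l5 read 2.65, 2.59, 2.54 and 2.67 in stress 1 to 4, 1.78 in stress 5 and 1.88 in stress 6, against a lowest, median and highest level of 1.68, 1.75 and 1.80 in the wheel rats. Stress 5 and stress 6 lay close to the wheel rats. Its difference was -0.61 ± 0.13 (SE, n = 6 and 6, adjusted p = 0.0364) and -0.09 ± 0.05 (SE, n = 6 and 2, adjusted p = 0.837) against stress 5 and 6. Rpl27l2 had the deepest fall of all genes that passed, -1.73, with -0.17 against stress 5 and 6, and was well above background on 4 of 6 wheel arrays. Rpl39l5, Rps19l3, Ppp1r14bl, Pbp2 and Slc7a3l1 differed over 6 and 6 by -1.47, -0.69, -1.09, -0.99 and -0.77, but stood at 0.09, 0.01, 0.08, 0.01 and 0.00 against stress 5 and 6.

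Regulators and enzymes of the same class followed. Id3, an inhibitor of basic helix-loop-helix factors, read -2.97, -2.72, -3.12 and -2.79 in stress 1 to 4, -5.08 in stress 5 and -4.53 in stress 6, against a lowest, median and highest level of -5.43, -5.04 and -4.74 in the wheel rats. Every rat of slides 4 and 5 was below every rat of slide 3. Controls averaged -3.06 ± 0.16 (SD, n = 6). The difference was -1.52 ± 0.33 (SE, n = 6 and 6, adjusted p = 0.0375) and -0.25 ± 0.18 (SE, n = 6 and 2, adjusted p = 0.903) against stress 5 and 6. Cyp11a1, the side-chain cleavage enzyme that starts steroid synthesis, read -1.66, -1.83, -1.87 and -2.34 in stress 1 to 4, -3.77 in stress 5 and -4.22 in stress 6, against a lowest, median and highest level of -4.47, -4.06 and -3.67 in the wheel rats. Both stress rats of slide 4 lay inside the wheel range, and the differences were -1.42 ± 0.37 (SE, n = 6 and 6, adjusted p = 0.0446) and -0.04 ± 0.22 (SE, n = 6 and 2, adjusted p = 0.994). Agtr1b, an angiotensin II receptor subtype, read -5.94, -6.06, -5.84 and -5.99 in stress 1 to 4, -6.85 in stress 5 and -7.43 in stress 6, against a lowest, median and highest level of -8.06, -7.45 and -7.11 in the wheel rats. Stress 6 was within the wheel range and stress 5 above it, and 3 of 6 wheel arrays were well above background. It differed by -1.16 ± 0.29 (SE, n = 6 and 6, adjusted p = 0.0419) and by -0.38 ± 0.33 (SE, n = 6 and 2, adjusted p = 0.923) from stress 5 and 6. Agtr1a, the other subtype, did not pass (-0.28, adjusted p = 0.0922).

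Neuronal genes were among the rises of this class. Glutamate receptor, transport and scaffold genes gave 3 rises and no fall among 31 tested, with a median of 0.11, and of 0.00 against stress 5 and 6. Over all genes 1.71% rose. Grin1, the obligate subunit of NMDA receptors, read 0.83, 0.79, 0.77 and 0.78 in stress 1 to 4, 1.11 in stress 5 and 1.05 in stress 6, against a lowest, median and highest level of 1.01, 1.21 and 1.29 in the wheel rats. Both stress 5 and stress 6 were within the wheel range and above the other stress rats. It was 0.30 ± 0.07 (SE, n = 6 and 6, adjusted p = 0.0398) higher, 0.10 ± 0.07 (SE, n = 6 and 2, adjusted p = 0.903) against stress 5 and 6, and 0.29 ± 0.08 (SE, n = 2 and 4, adjusted p = 0.019) between the stress rats themselves. The modulatory subunits Grin2c and Grin2d rose by 0.35 and 0.15, with 0.16 and 0.10 against stress 5 and 6. In Grin2d all wheel rats were above all stress rats, so it belongs to the first class. Stress 5 and 6 minus stress 1 to 4 gave 0.06 ± 0.05 in Grin2d (SE, n = 2 and 4, adjusted p = 0.475). Axon and cytoskeleton genes gave 2 rises among 23 (median 0.11, and 0.00 against stress 5 and 6): Nefh, the heavy neurofilament, at 0.43 ± 0.11 (SE, adjusted p = 0.0407), and Map1a, a microtubule-associated protein, at 0.18 ± 0.05 (SE, adjusted p = 0.0436). They differed by 0.17 and 0.06 from stress 5 and 6. Among 21 GABA genes the brightest Gabbr1 probe, for a GABA-B receptor subunit, was the 1 that passed, at -0.19 ± 0.05 (SE, adjusted p = 0.0473) and -0.02 against stress 5 and 6. The other Gabbr1 probe had the other sign and did not pass (0.10, adjusted p = 0.317). The second Grin2d probe did not pass either (0.05, adjusted p = 0.8).

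Clock genes gave 1 rise among 16, beside 1.71% of all genes. Nr1d1, the nuclear receptor REV-ERB alpha that represses Bmal1, read -4.48, -4.71, -4.28 and -4.58 in stress 1 to 4, -4.00 in stress 5 and -4.21 in stress 6, against a lowest, median and highest level of -4.08, -3.95 and -3.86 in the wheel rats. Stress 5 lay within the wheel range, and stress 6 was just outside it. The difference was 0.42 ± 0.09 (SE, n = 6 and 6, adjusted p = 0.0366) and 0.15 ± 0.09 (SE, n = 6 and 2, adjusted p = 0.881) against stress 5 and 6. Zfp143, a zinc finger activator of transcription, was 0.43 ± 0.11 (SE, adjusted p = 0.0435) higher, with 0.05 against stress 5 and 6.

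**Figure D3:**
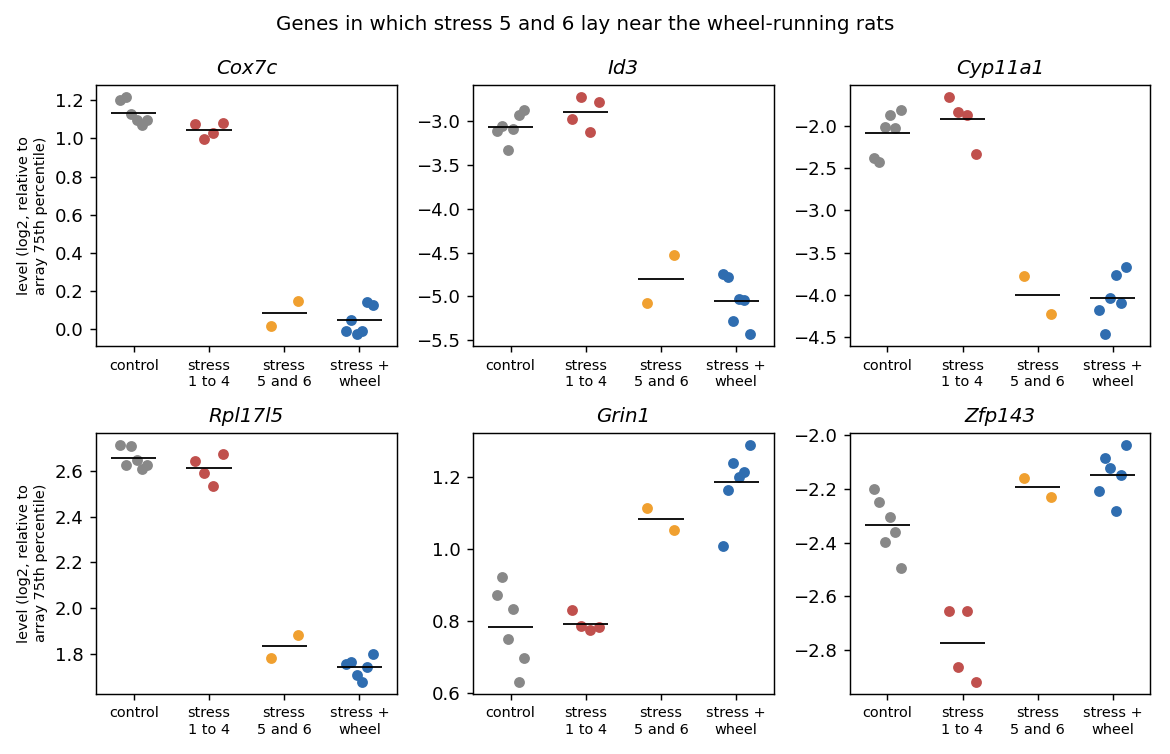
Level of 6 genes (log2, relative to the array's 75th percentile) in each rat, by group. Points are rats and bars are group means. Stress 5 and 6 sit with the wheel rats and away from stress 1 to 4 in Cox7c, Id3, Cyp11a1, Rpl17l5, Grin1 and Zfp143.

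Upstream sequences were set beside the genes that passed over 6 and 6 and those that differed between the stress rats, not beside the classes as such. Their CpG content was counted and not tested. A RefSeq GRCr8 window of 300 bases around the start, the first listed for each gene, was found for 10495 of 12846 tested genes. The median number of CpG in it was 19 over all of them, 22 among the genes higher in the wheel rats and 17 among the lower ones. Genes higher in stress 5 and 6 than in stress 1 to 4 had a median of 21, and the lower ones 10, over 804 and 740 genes. The 250 bases before the start of Grin1 (chr3:28528755-28529004, minus strand), Agtr1b (chr2:104849263-104849512, minus strand) and Srms (chr3:188702475-188702724, minus strand) are printed 5′ to 3′ as a riser and a faller of the second class and a riser of the first, with each CpG (the letters CG, which read the same on both strands) in capitals.
Grin1: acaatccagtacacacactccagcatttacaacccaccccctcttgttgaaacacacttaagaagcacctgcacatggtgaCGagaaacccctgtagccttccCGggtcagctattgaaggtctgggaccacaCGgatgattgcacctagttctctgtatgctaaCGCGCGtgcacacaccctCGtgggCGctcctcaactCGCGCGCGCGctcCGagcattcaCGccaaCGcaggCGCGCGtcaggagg
Agtr1b: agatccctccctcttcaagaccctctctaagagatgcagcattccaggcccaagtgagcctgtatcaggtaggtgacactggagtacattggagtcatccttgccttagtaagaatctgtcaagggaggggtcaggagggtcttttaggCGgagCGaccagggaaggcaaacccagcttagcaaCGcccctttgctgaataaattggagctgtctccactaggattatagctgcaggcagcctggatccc
Srms: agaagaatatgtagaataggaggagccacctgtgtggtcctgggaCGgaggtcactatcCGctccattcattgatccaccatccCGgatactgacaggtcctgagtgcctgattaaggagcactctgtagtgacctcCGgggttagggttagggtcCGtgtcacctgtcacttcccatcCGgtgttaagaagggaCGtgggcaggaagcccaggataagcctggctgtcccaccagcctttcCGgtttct
These stretches hold 19, 3 and 8 CpG. A count of letters describes the window only.

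In the list of 20 stress axis neuropeptides and receptors 1 fell and none rose, a share close to the 3.55% of all genes that passed, with a median of -0.07 against 0.03 over all genes. The fall was Trh, thyrotropin-releasing hormone, at -0.09, 0.17, -0.10 and -0.03 in stress 1 to 4, -0.16 in stress 5 and -0.12 in stress 6, against a lowest, median and highest level of -0.51, -0.35 and -0.12 in the wheel rats. One wheel rat overlapped the stress rats. The difference was -0.28 ± 0.08 (SE, n = 6 and 6, adjusted p = 0.0498) and -0.19 ± 0.11 (SE, n = 6 and 2, adjusted p = 0.861) against stress 5 and 6. Crh, the releasing hormone of the axis, read -1.20, -0.83, -1.14 and -0.79 in stress 1 to 4, -1.04 in stress 5 and -1.17 in stress 6, against a lowest, median and highest level of -1.37, -1.25 and -0.88 in the wheel rats, with wide overlap and a difference of -0.16 ± 0.10 (SE, n = 6 and 6, adjusted p = 0.308). Avp, vasopressin, differed by 0.03 ± 0.09 (SE, adjusted p = 0.885), Oxt, oxytocin, by -0.15 ± 0.09 (SE, adjusted p = 0.307), and Pomc, the melanocortin precursor, by -0.25 ± 0.11 (SE, adjusted p = 0.179). The probes of Nr3c1, the glucocorticoid receptor, disagreed. The brightest gave 0.02 ± 0.07 (SE, adjusted p = 0.883) and another 0.08 ± 0.13 (SE, adjusted p = 0.751), while a dimmer one passed as lower at -0.26 ± 0.07 (SE, adjusted p = 0.0433), with -0.10 against stress 5 and 6. With the brightest probe of each gene, none of 17 glucocorticoid signalling and target genes passed (median -0.03). Fkbp5, a chaperone induced by glucocorticoids, had the smallest p among those probes at -0.20 ± 0.07 (SE, adjusted p = 0.0889), and -0.01 against stress 5 and 6.

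Feeding peptides also did not pass. Npy, neuropeptide Y, read 1.45, 1.82, 1.36 and 1.64 in stress 1 to 4, 1.40 in stress 5 and 1.47 in stress 6, against a lowest, median and highest level of 1.49, 1.67 and 1.81 in the wheel rats. Stress 5 and 6 were below every wheel rat, but stress 1 to 4 overlapped them. The difference was 0.13 ± 0.09 (SE, n = 6 and 6, adjusted p = 0.37) and 0.22 ± 0.12 (SE, n = 6 and 2, adjusted p = 0.863) against stress 5 and 6. Agrp, the melanocortin antagonist, gave 0.08 ± 0.16 (SE, adjusted p = 0.785). With the brightest probe of each gene none of 23 feeding and energy balance genes passed, and their median was 0.00. Socs3, an inhibitor of cytokine and leptin receptor signalling, stood at -0.36 ± 0.11 (SE, adjusted p = 0.0685) by that probe, and its second probe passed as lower at -0.47 ± 0.12 (SE, adjusted p = 0.0452). Against stress 5 and 6 these Socs3 probes gave -0.24 and -0.19. Early genes driven by neuronal activity (19 tested) and exercise-linked trophic and synaptic genes (24 tested) had no call either, with medians of -0.05 and 0.08. Fos stood at -0.22 ± 0.20 (SE, adjusted p = 0.524) and Bdnf, the trophic factor often raised by running, at 0.20 ± 0.11 (SE, adjusted p = 0.272). None of 24 cytokine, chemokine and NF-kB genes and none of 25 antigen presentation and interferon genes passed. Tnf differed by 0.44 and by -0.01 from stress 5 and 6.

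Dopamine genes held the widest difference that missed the threshold among the listed genes named here. Slc6a3, the dopamine transporter, read -6.69, -7.43, -6.60 and -5.70 in stress 1 to 4, -5.72 in stress 5 and -6.36 in stress 6, against a lowest, median and highest level of -5.46, -4.49 and -4.04 in the wheel rats. All 6 wheel rats were above all 6 stress rats, and controls averaged -5.95 ± 1.32 (SD, n = 6). Control 1 read -4.92, inside the wheel range, and control 2 read -3.96, above it. The other controls ran from -7.73 to -6.30. Controls 1 and 2 lay on slide 1 (scan day 2) and the others on slide 2 (scan day 1). This split of the controls thus runs along slide and scan day, and its cause was not tested. The difference was 1.77 ± 0.49 (SE, n = 6 and 6, adjusted p = 0.0514) and 1.40 ± 0.70 (SE, n = 6 and 2, adjusted p = 0.82) against stress 5 and 6, and neither passed. Th, tyrosine hydroxylase, the rate-limiting enzyme of dopamine synthesis, read 1.14, 1.29, 1.19 and 1.44 in stress 1 to 4, 1.42 in stress 5 and 1.10 in stress 6, against a lowest, median and highest level of 1.16, 1.73 and 2.42 in the wheel rats. The groups overlapped, at 0.46 ± 0.20 (SE, n = 6 and 6, adjusted p = 0.169). Over 19 dopamine and noradrenaline genes the median was 0.16 with no call, and 0.12 against stress 5 and 6. Markers of midbrain dopamine neurons, a region beside the hypothalamus, were read beside Slc6a3. In all, 8 of 10 were higher, none passed, and their mean level ran from -4.87 to -4.54 in stress 1 to 4, was -4.52 in stress 5 and -4.60 in stress 6, and ran from -4.55 to -3.93 in the wheel rats. Their part in the difference was not tested.

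**Figure D4:**
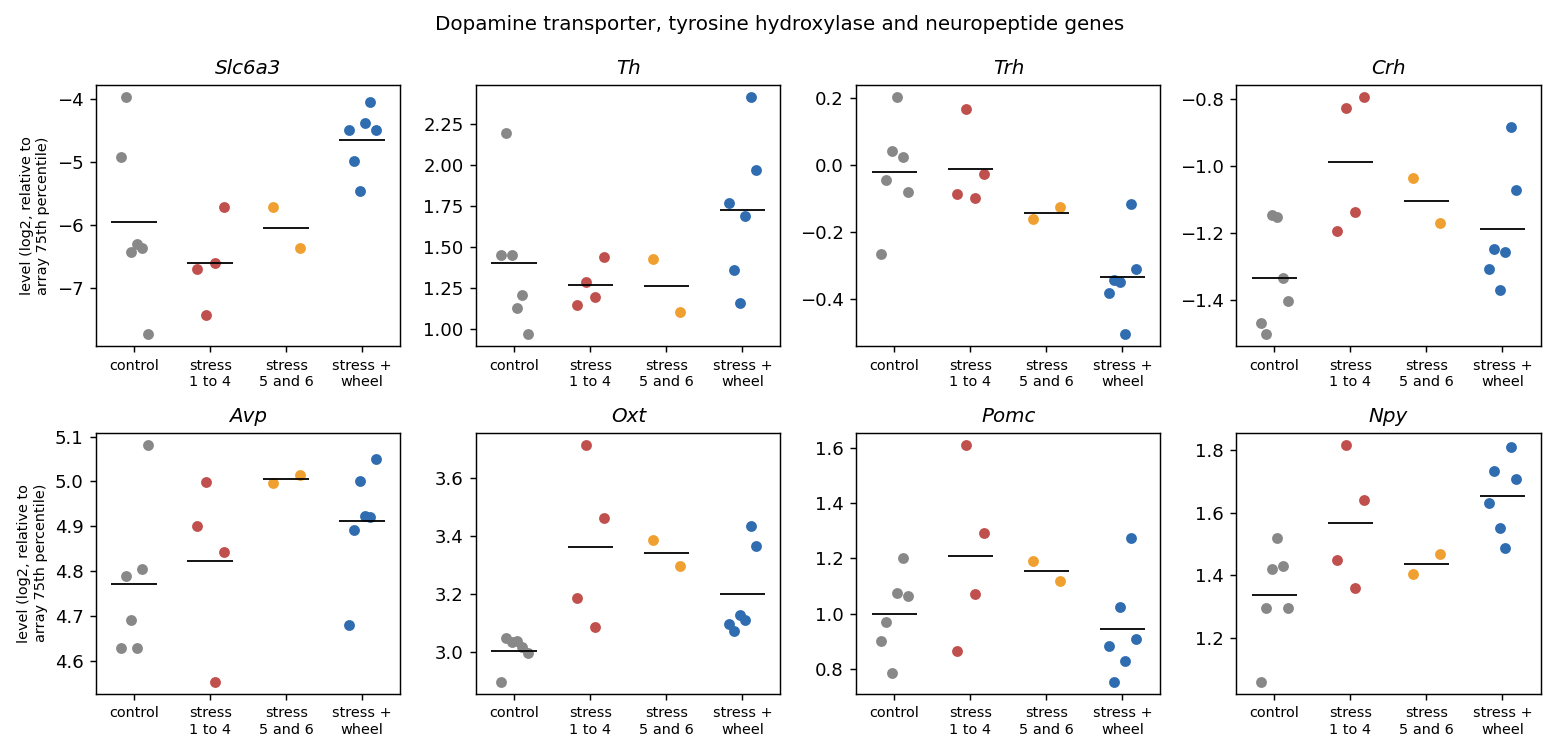
Level of 8 dopamine and neuropeptide genes (log2, relative to the array's 75th percentile) in each rat, by group. Points are rats and bars are group means. In Slc6a3 the wheel rats, from -5.46 to -4.04, lie above all stress rats, and in the other 7 genes the groups overlap.

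The remaining lists gave few calls, to be read beside the 3.55% of all genes that passed. No call was made among 44 voltage-gated channel genes (median 0.08), 27 antioxidant genes (0.05) or 16 acetylcholine genes (0.12). Cholesterol synthesis gave 2 falls among 23, Idi1 and Fdft1, squalene synthase, which stood at -0.35 and at -0.06 against stress 5 and 6. Wnt, Notch, BMP and Id genes gave 1 rise, the ligand Wnt7b, and 1 fall, Id3, among 30. Wnt7b was 0.45 ± 0.09 (SE, adjusted p = 0.0359) higher, and 0.28 higher than stress 5 and 6. Proteasome subunits gave 1 rise, Psmd9, and 1 fall, Psmd10, among 35. Olfactory receptor genes, 130 of 1106 tested and dim, had a median of -0.27 with 2 falls (Or51b6 and Or9s23). Their median was 0.14 against stress 5 and 6, and -0.60 with 52 falls for stress 5 and 6 minus stress 1 to 4. In that last contrast 912 of all 12846 tested genes were lower.

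**Figure D5:**
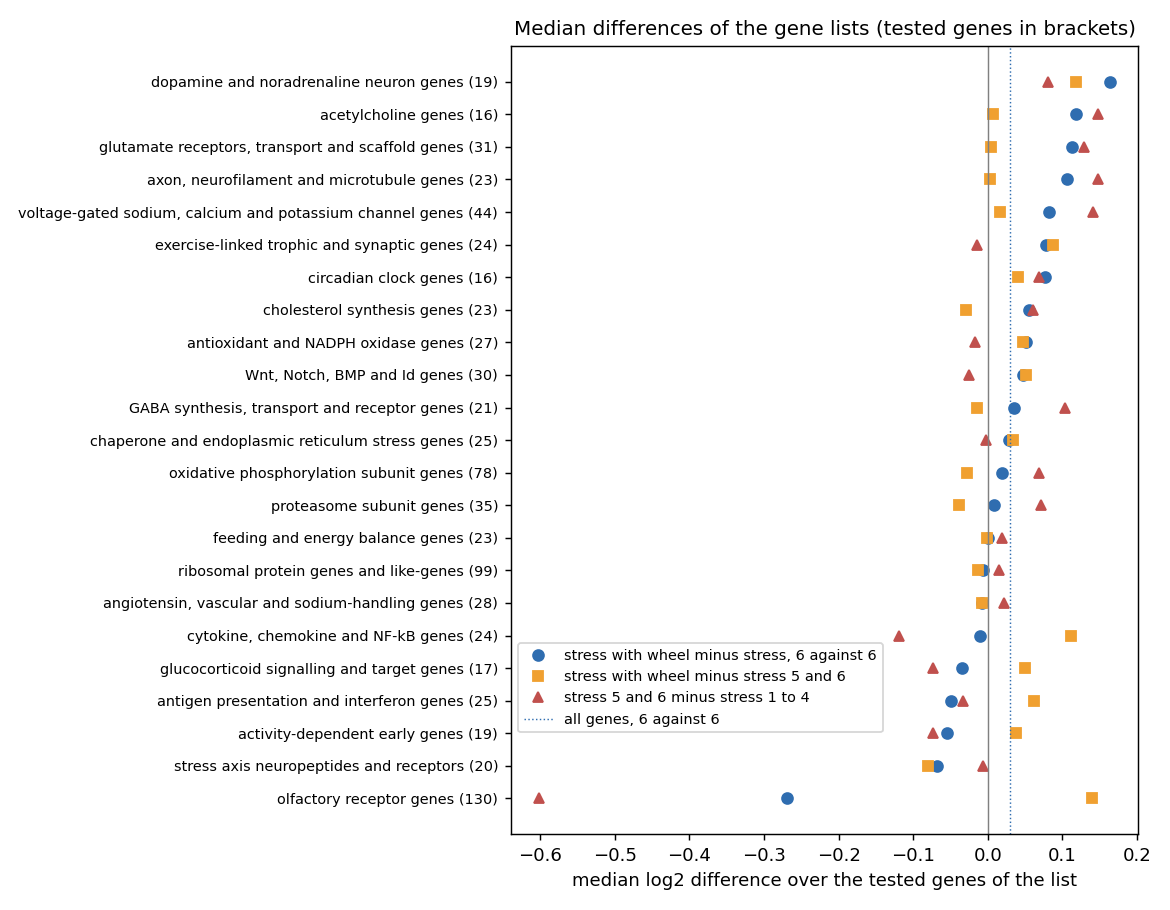
Median log2 difference over the tested genes of each function list (vertical, number tested in brackets) for 3 contrasts. The dotted line is the median of all genes over 6 and 6, 0.03. Glutamate and axon genes sit at 0.11 over 6 and 6 and at 0.00 against stress 5 and 6, and olfactory receptor genes at -0.27 and 0.14.

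Cell markers gave few calls. Hypothalamic neuron markers were present, with 13 of 14 tested, 1 fall (Trh) and a median of -0.05. Microglia gave 1 rise among 11 (Tmem119) and astrocytes 1 fall among 11 (Sox9), and none of the 11 oligodendrocyte, 10 precursor or 10 endothelial markers passed. All 9 tested thalamic markers were higher in the wheel rats and none passed. Their mean level ran from -2.12 to -0.93 in stress 1 to 4, was -1.33 in stress 5 and -1.10 in stress 6, and ran from -1.62 to -0.36 in the wheel rats. The mean level of choroid plexus markers (8 tested, none passed) ran from -4.38 to -2.72 in stress 1 to 4, was -5.14 in stress 5 and -3.89 in stress 6, and ran from -4.54 to -4.03 in the wheel rats. Pituitary markers differed widely between arrays. Of the 6 tested, 5 were lower in the wheel rats and none passed, with a median of -0.41, and of 0.16 against stress 5 and 6. Their mean level ran from -3.50 to -3.39 in stress 1 to 4, was -5.52 in stress 5 and -5.50 in stress 6, and ran from -5.33 to -3.91 in the wheel rats. Cga, the alpha subunit shared by glycoprotein hormones and singled out here after its values were seen, read 2.05, 3.26, 2.85 and 2.95 in stress 1 to 4, -8.74 in stress 5 and -7.74 in stress 6. In wheel rats 1 to 6 it read 1.14, 0.52, -7.71, 0.65, 1.69 and -6.26. The level was thus high in stress 1 to 4 and in 4 wheel rats, and low in both stress rats of slide 4 and in 2 wheel rats. Prl, prolactin, was not well above background on any of the 12 arrays. The part of pituitary tissue in the other differences was not tested.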

How the data were processed

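Hypothalamic RNA of 18 rats was measured on 1-colour Agilent rat arrays. The intensity used is the deposited processed signal, already corrected for background by Agilent Feature Extraction (version 12.1.0.3 per the file headers, 9.1 per the submitters' processing notes). The intensity values of the authors' series matrix equal the processed signal times a constant per array (1.02 to 1.24). The sources used here do not give how it was chosen. Control and outlier spots (297 to 580 per array) were left out, log2 values were scaled to each array's 75th percentile, and spots of a probe were averaged. A probe was tested if well above background on at least 5 of 6 arrays of either group. Of 45598 probes, 21220 matched 1 symbol through RefSeq accessions (GRCr8), 0 several and 24378 none.

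limma 3.58.1 in R 4.3.3 (lmFit, eBayes, two-sided, Benjamini-Hochberg over all tested probes) was fitted to 18 arrays with 3 groups, and with the stress group split by slide set; the code was tested on simulated data. p-values rest on the spread between rats of a group, which also holds differences between slides and scan days. Except where slide was a block, arrays of 1 slide were treated as independent. The correlation within a slide was 0.37. Named genes were the 12 largest changes per direction, the 12 largest beyond stress 5 and 6, those of opposite sign against stress 5 and 6, at most 4 members that passed from each function list (or the 1 with the smallest p), those with the smallest p against stress 5 and 6, and fixed genes. Not all are printed, and 1 result is not reported here. Members and lists were chosen with earlier results of these data known. Alternatives covered scaling, background, filter, slide, scan day, pairing and single arrays.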

Additional observations from a re-analysis of the deposited data

Results flagged for a closer look

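A single rat stood apart from the 5 others of its group in 6 of 193 groups checked over the named genes (Dixon's test). Chance alone marks about 1 group in 20. Avp was 4.55 in stress 3, against 4.84 to 5.01 in the others. Fos was -5.79 in stress 5, against -4.83 to -4.49, and -4.45 in wheel rat 2, against -5.40 to -5.05. Grin2d was 3.00 in stress 4, against 3.15 to 3.18, and Gabbr1 was 1.98 in wheel rat 1, against 2.09 to 2.14. Crygd, a lens crystallin gene, was -7.14 in wheel rat 2, against -6.83 to -6.79.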

How the results depend on the processing

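Over 6 and 6, the 1191 probes became 1595 under quantile normalization, 1386 with no scaling (36 higher, 1350 lower), 1339 with the percentile over probes measured on all arrays, 1587 under normexp (run on the median signal, since the files used hold no mean signal) and 1265 from the series matrix. The count was 2 with no filter, 0 with 12 arrays only, 2003 with trend and robust, 0 with slide as a random block, 2 with slide set as a covariate, 3103 with scan day as a block, 0 within day 1, 7556 within day 2, 7637 without stress 5 and 6 and, chosen after seeing the data, 3 within slides 4 and 5. Counts without 1 rat ran from 1 to 4597. The replicate block gave 1 probe; rats with the same number correlated at -0.055 to 0.194 (every pair above 0.1 would have been needed to treat them as paired).

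Against stress 5 and 6, the 2 probes became 4 under quantile normalization, 5 with no filter and 0 with probes measured on all 12 arrays (1699 at an unadjusted p under 0.05), and ran from 2 to 63 without 1 rat, with 55 without stress 5 and 63 without stress 6. These last counts leave 1 rat in that arm, which is assumed to vary like the other groups. Stress 5 and 6 minus stress 1 to 4 gave 4882 probes, 3049 with no scaling, and 2736 to 5043 without 1 rat. With scan day as a block, stress 5 and 6 minus stress 1 to 4 gave 4283 probes (2032 higher, 2251 lower). The wheel rats against stress 5 and 6 then gave 3. The day term rests on control and wheel rats, which were scanned on both days. The cause of these changes was not tested.

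Of the 65 named genes that passed, all kept their direction in every alternative run on genes except slide set as a covariate, where Pbp2 (0.012), Ppp1r14bl (0.0825), Rpl39l5 (0.0882), Rps19l3 (0.01) and Slc7a3l1 (0.0009) turned. All 65 passed with scan day as a block and without stress 5 or stress 6, 45 with no scaling, 48 under normexp, 56 with the mean over a gene's probes, and 0 with 12 arrays only, the slide-set covariate or the replicate block. The number of arrays limits the precision, and only stress 5 and 6 link the slide sets.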

Other observations

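Genes with the smallest p against stress 5 and 6 were mostly dim ones in which these 2 rats stood apart from the rest. Il20, a cytokine, was not well above background in stress 5 and 6 and was at least 1.67-fold higher in the wheel rats. Fgr, a Src-family kinase of myeloid cells, gave 0.80 ± 0.16 (SE, n = 6 and 2, adjusted p = 0.188), and Ghrl, the precursor of the appetite hormone ghrelin, -1.65 ± 0.36 (SE, n = 6 and 2, adjusted p = 0.342). Cntnap5bl1, Thada, Rnase12 and Syt16 were lower in the wheel rats than in stress 5 and 6, by -1.59, -0.83, -0.53 and -0.17. Or56a5, Obp2b and Dennd2d, also not well above background in stress 5 and 6, were at least 1.37-fold, 1.64-fold and 1.47-fold higher in the wheel rats. These bounds are against the dimmest measurable signal, and none of these genes passed against stress 5 and 6.

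Of the 2 probes that did pass against stress 5 and 6, 1 lay in Kif16b, a kinesin of endosome transport, and was not the gene's brightest. It read -3.95 in stress 5 and -3.90 in stress 6, and between -7.30 and -6.22 in stress 1 to 4 and -6.64 and -6.29 in the wheel rats, with a difference of -2.58 ± 0.22 (SE, n = 6 and 2, adjusted p = 0.00011). The other probe has no symbol. Its stress 6 value was left out as an outlier, so its difference of -2.57 rests on stress 5 alone, at -3.43.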
